A study of Mus musculus with 15 samples.

Results

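The interferon-inducible GTPases described here are 10 genes of 18536 in the table of a developmental series of the mouse auditory nerve, 5 of the guanylate-binding protein (GBP) family (Gbp2, Gbp3, Gbp5, Gbp6 and Gbp7) and 5 of the immunity-related GTPase (IRG) family (Igtp, Irgm1, Irgm2, Iigp1 and Tgtp1). They were picked by symbol because their transcripts stood high at postnatal day (P) 3, so their level at P3 against any later age is given as a description, with no test. The series measured RNA by bulk sequencing in nerves dissected from the cochlea at P3, P7, P14 and P21 and in adults, with 3 libraries per age and 15 in all. Each library held the nerves of both cochleae of 1 mouse. None of the animals is labelled with a treatment or an engineered allele, the titles of the adult samples carry the tag CTRL, and strain, sex and adult age were not given in the sources used here.

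Both families act in cell-autonomous defence. Interferon gamma, and more weakly the type I interferons, induce them, and promoters of interferon-induced genes are known for 2 motifs, the gamma-activated site (GAS) and the interferon-stimulated response element (ISRE), the motif of IRF1. The proteins then gather on the membranes of vacuoles that hold bacteria or protozoa and break them open. Within the IRG family, Irgm1, Irgm2 and Igtp sit on the membranes of the cell itself and keep the effectors Iigp1 and Tgtp1 inactive there.

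Levels are normalized read counts: the reads of a gene after division by a factor that sets the libraries to a common size. Recovered reads numbered between 35250155 and 42258738 per library, and 3 reads, taken as the floor of detection, corresponded to a normalized count between 2.53 and 3.65. Every member lay above that floor in all libraries, from 59.2 for Tgtp1 in a P7 library to 6198 for Iigp1 in a P3 library, and all 10 passed the filter on low values. One library stood apart for these genes: P3 replicate 1 held the lowest of the 3 P3 values for 10 of 10 members. Over all 16723 genes tested it held the lowest P3 value in 38.5%, so values at P3 are given with and without it. In tissue homogenates such as these, fewer cells of a type and less RNA per cell cannot be told apart.

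All 10 members were higher in each P3 library than in any of the 12 libraries of later ages. The share of all genes with such a gap was not counted, and the members were chosen for being high at P3. At P7 their means were between 3.84-fold (Gbp6) and 23.9-fold (Tgtp1) lower than at P3, with a median of 7.26-fold. The gap between the lowest P3 library and the highest later one was narrowest for Gbp5, with a ratio of 1.14, and widest for Iigp1, with a ratio of 5.87. On the log2 scale the median difference of the 10 was -2.74 for P7 minus P3 and -2.31 for adult minus P3, against -0.02 and -0.01 over all genes tested. Since the genes were chosen for this difference, 28.1% of all genes called between P7 and P3 is given only as the background of that comparison.

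**Figure D1:**
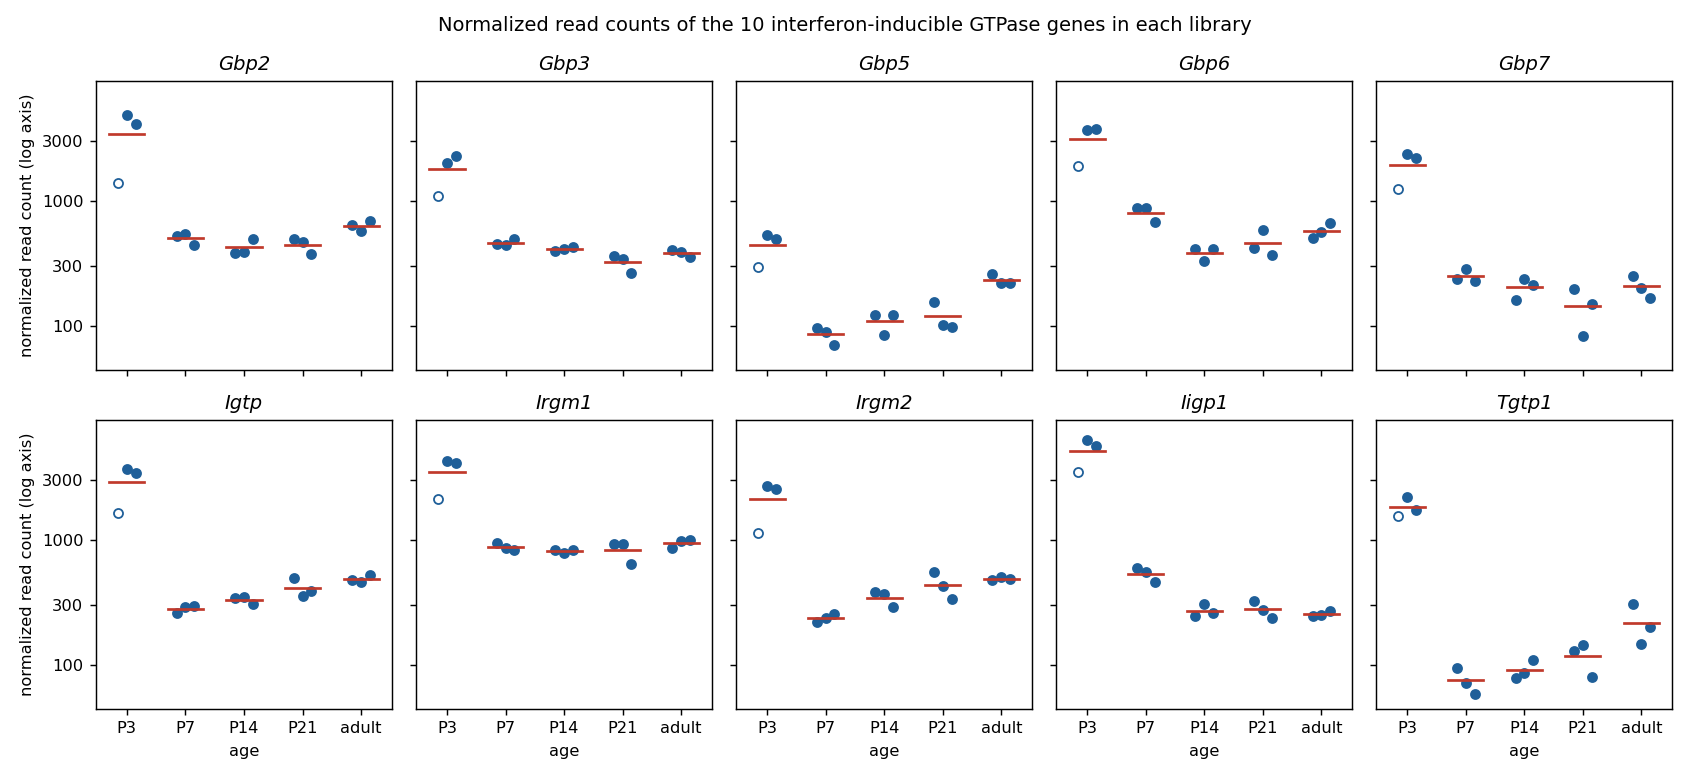
Normalized read counts (log axis) of the 10 genes in each library by age, with 1 point per library, the open point for P3 replicate 1 and a red line for the mean of the 3 libraries of an age. All P3 points lie above all later points in every panel, and among the later ages the adult mean is the highest for Gbp5, Igtp, Irgm2 and Tgtp1 but the P7 mean for Iigp1 and Gbp6.

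Among the GBPs, Gbp2, a prenylated protein that coats pathogen vacuoles, differed most between the P3 libraries. Its normalized counts were 524, 542 and 447 in the P7 libraries, against 1385, 4792 and 4116 in the P3 libraries. Replicate 1 of P3 thus held 0.311 of the mean of the other pair, the lowest such share of the 10 genes. Gbp3, on chromosome 3 like Gbp2, stood at 449, 442 and 500 at P7, against 1096, 1983 and 2272 at P3. Gbp7, in the same row of genes, stood at 240, 284 and 230 at P7, against 1238, 2377 and 2198 at P3, the largest difference of the 5 GBPs.

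Gbp5, which has been tied to inflammasome assembly, stood at 96.7, 90.1 and 71.4 at P7, against 297, 533 and 499 at P3. Gbp6 is the only member in the chromosome 5 group of GBPs. It stood at 871, 874 and 672 at P7, against 1880, 3633 and 3760 at P3. Of its 50-base stretches 59.7% also occur in transcripts of other genes (GENCODE M21), 51.5% in the overlapping gene model Gm43302 alone, so its reads may be shared. The same share was 12.8% for Gbp7 and below 5% for Gbp2 (2.07%), Gbp3 (4.79%) and Gbp5 (2.45%).

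The 3 regulatory IRGs lie on chromosome 11, Irgm1 at chr11:48865245-48871420 and, farther along, Igtp at chr11:58199556-58207592 and Irgm2 at chr11:58214977-58222783 (mm10). Irgm1, whose loss in mice impairs macrophage function and haematopoietic stem cells, stood at 944, 854 and 833 at P7, against 2131, 4217 and 4082 at P3. Irgm2 stood at 222, 239 and 255 at P7, against 1134, 2707 and 2538 at P3. Igtp, also called Irgm3, stood at 259, 292 and 295 at P7, against 1642, 3667 and 3415 at P3. The P7 mean was thus 3.96-fold lower for Irgm1, 8.90-fold for Irgm2 and 10.3-fold for Igtp. Igtp and Irgm2 lie next to each other and share 12.3% of the 50-base stretches of Igtp.

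The effector IRGs, Tgtp1 at chr11:48985329-48992246 and Iigp1 at chr18:60376029-60392629, had the widest gaps to later ages. Iigp1 (Irga6), which disrupts the vacuole of Toxoplasma, stood at 592, 558 and 464 at P7, against 3477, 6198 and 5640 at P3. Tgtp1 (Irgb6) stood at 95.8, 72.6 and 59.2 at P7, against 1537, 2182 and 1729 at P3, and its P3 replicate 1 was the closest to the other pair, at 0.786 of their mean. Tgtp2 holds 89.4% of the 50-base stretches of Tgtp1, so reads of the pair cannot be assigned with certainty. Their sum lay between 196 and 267 at P7, against 3900 to 6635 at P3.

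Set per kilobase of exon (union of GENCODE M21 exons), the P3 level was highest for Igtp, with 1438 ± 546 normalized counts per kilobase, and Gbp2, with 1364 ± 717 (SD, n = 3). Iigp1 followed with 877 ± 247, and Gbp5 was lowest with 66.8 ± 19.3. In adults Gbp2 (252 ± 23.5) and Igtp (241 ± 17.3) were again highest per kilobase, while Iigp1 (44.3 ± 2.01) stood next to Gbp7 (37.0 ± 7.43) and Gbp5 (35.3 ± 3.35). The leading pair did not differ beyond its spread at either age.

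The 3 P3 libraries were ordered alike for most members. Replicate 1 held between 0.311 and 0.786 of the mean of replicates 2 and 3, with a median of 0.514. Replicates 2 and 3 lay close together, with a median log2 difference of -0.10 for replicate 3 minus replicate 2, and 2 of the 10 genes, Gbp3 and Gbp6, were higher in replicate 3. Relative to the P7 mean, replicate 1 alone was still between 2.33-fold and 20.3-fold higher, and the other pair between 4.59-fold and 25.8-fold. The log2 median of the members for P7 minus P3 was -3.16 without replicate 1.

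**Figure D2:**
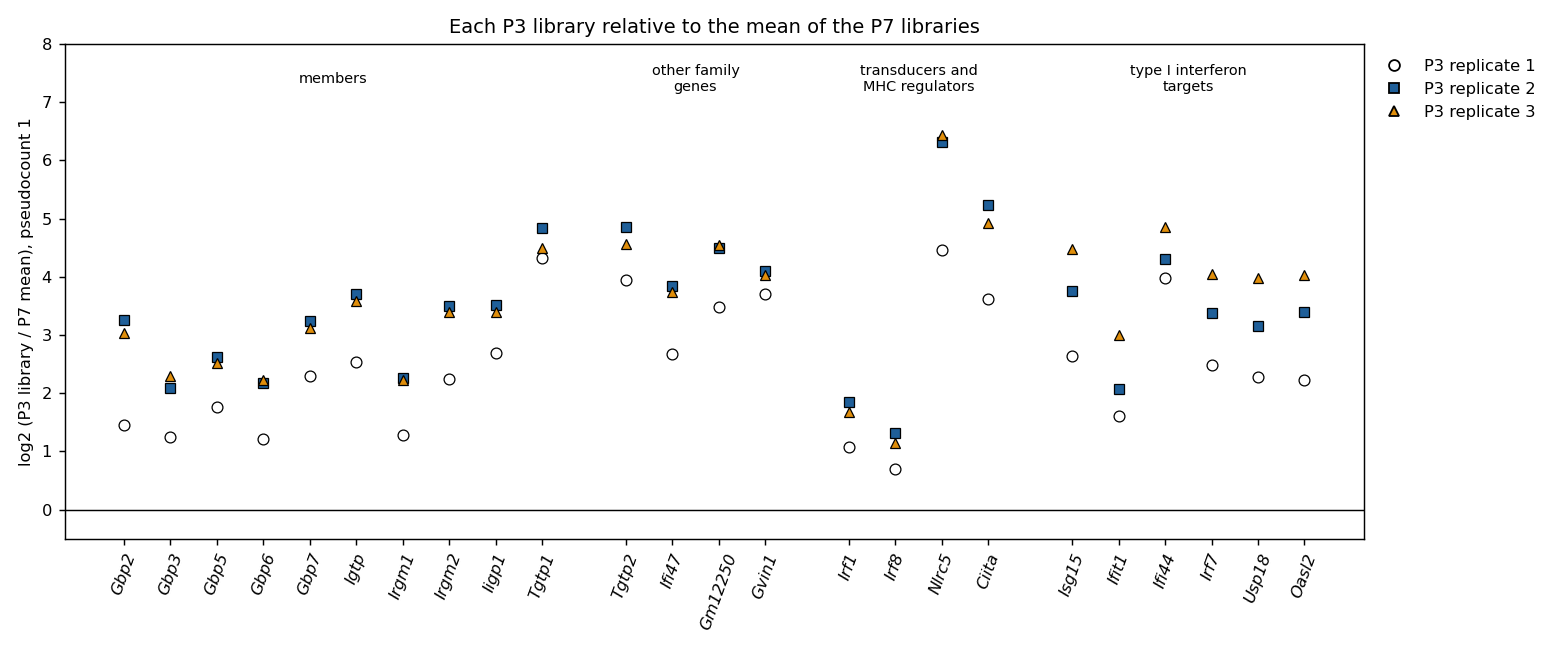
Log2 ratio of each P3 library over the mean of the 3 P7 libraries (pseudocount 1, so positive values are higher at P3) for the members and for named interferon genes. Replicate 1 (open circles) is lowest for every gene shown, and replicate 3 (triangles) is highest for the type I interferon targets but not for most members.

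The same replicate was low for other interferon genes. It held the lowest P3 value for 17 of 18 tested genes of the interferon gamma target list and for 19 of 19 of the type I target list. Within the type I list, replicate 3 was higher than replicate 2 for 19 of 19 genes (median log2 difference 0.38), whereas over the gamma targets the median was 0.00. Marker levels of other cells also moved with replicate 1: it was lowest for 13 of 14 macrophage markers, with a median log2 difference of -0.45 from the other pair, and for 11 of 12 Schwann cell markers (-0.38). The shift was larger for the markers of T and natural killer cells, with a median of -1.15 and 7 of 7 below the mean of the other pair (5 of 7 the lowest). That median rests on low counts: in the P3 libraries all but Cd4 (between 220 and 333) stayed at or under 56.5. Nkg7, for example, stood at 6.74, 4.75 and 13.2. For neutrophil and B cell markers the median was -0.63, with 12 of 12 below that mean (5 of 12 the lowest). For endothelial markers it was lowest in 5 of 12, and for erythroid markers in 0 of 8. The part of these markers in the member values was not tested.

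Promoter sequence was available from RefSeq (build GRCm38.p6, 250 bases before to 50 after each start) for 8 of the 10 members: Gbp2, Gbp3, Gbp5, Gbp7, Igtp, Irgm1, Irgm2 and Tgtp1. Gbp6 and Iigp1 had no entry. The stretches are shown because the members were high together at P3 and the motifs are those known from interferon-induced genes, and they read 5′ to 3′ on the strand of the gene, all upstream of the start. Capitals mark the ISRE core, TTTC and again TTTC with 2 bases of any kind between them, and the GAS core TTCNNNGAA. Both strands were searched, and a reversed ISRE core reads GAAA, 2 bases of any kind and GAAA.
Gbp2 (chr3:142620584-142620633, + strand): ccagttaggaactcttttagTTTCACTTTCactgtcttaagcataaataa
Gbp3 (chr3:142559979-142560034, + strand): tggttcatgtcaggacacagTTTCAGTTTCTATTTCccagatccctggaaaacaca
Gbp5 (chr3:142496749-142496798, + strand): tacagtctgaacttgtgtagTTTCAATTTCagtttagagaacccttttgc
Gbp7 (chr3:142530210-142530312, + strand): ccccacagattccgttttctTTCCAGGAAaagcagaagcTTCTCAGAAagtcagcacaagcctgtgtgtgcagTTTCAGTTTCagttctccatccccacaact
Irgm1 (chr11:48871421-48871470, - strand): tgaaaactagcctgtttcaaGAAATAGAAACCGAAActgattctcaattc
Igtp (chr11:58199491-58199551, + strand): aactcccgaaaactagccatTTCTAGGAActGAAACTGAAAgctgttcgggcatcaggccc
Irgm2 (chr11:58214882-58214942, + strand): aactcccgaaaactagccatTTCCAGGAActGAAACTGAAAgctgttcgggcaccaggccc
Tgtp1 (chr11:48992294-48992354, - strand): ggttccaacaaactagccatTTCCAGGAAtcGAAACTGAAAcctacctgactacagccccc

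The 8 members have 9 windows, since Gbp3 has a second one at an alternative start. An ISRE core was found in 8 of the 9 windows, against 3.44% of all 32851 windows of that length, and in at least 1 window of 8 of the 8 members, against 3.99% of all 27025 genes with a window. A GAS core was found in 5 of the 9 windows, those of Gbp5, Gbp7, Igtp, Irgm2 and Tgtp1, against 8.30% of all windows. Both cores were found together in these same 5, against 0.454% of all windows. In Igtp, Irgm2 and Tgtp1 the GAS core was followed after 2 bases by a reversed ISRE core. The stretches of Igtp and Irgm2 are nearly identical and that of Tgtp1 is alike around both cores, so these windows are not independent. Gbp3 and Irgm1 each held a pair of overlapping ISRE cores and no GAS core in the window. The second Gbp3 window held neither. The ISRE core of Gbp5 lay farthest from the start, 165 bases upstream at its first base, and its GAS cores, 245 and 52 bases upstream, lie outside the stretch shown. These matches describe letters in a window, and binding was not measured here.

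**Figure D3:**
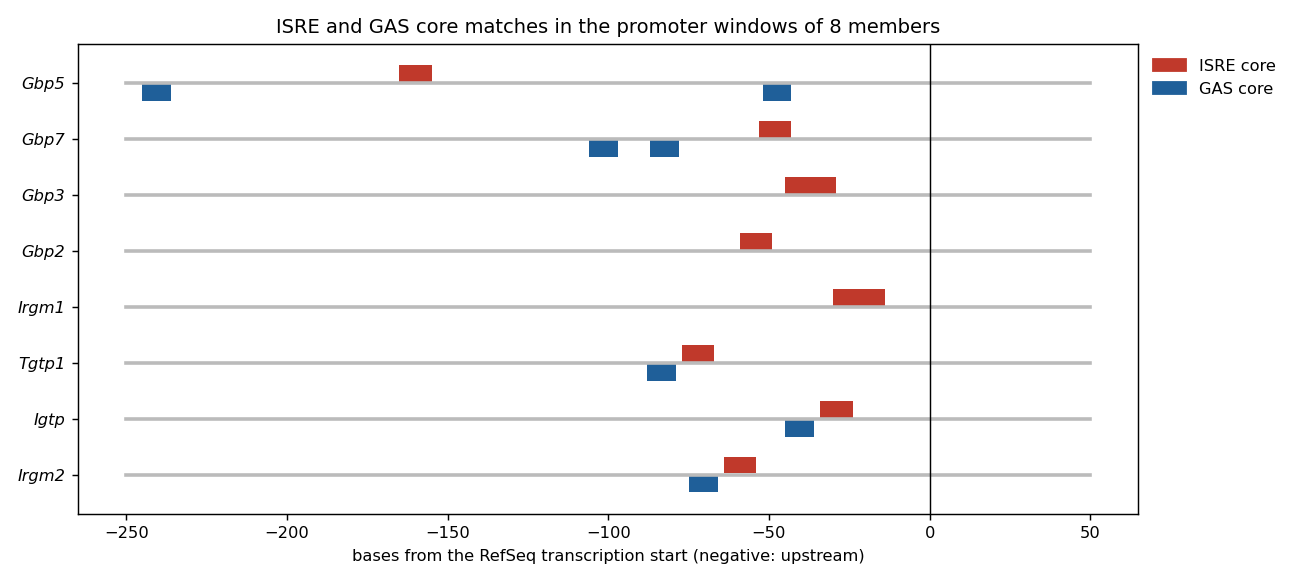
Positions of ISRE cores (red, above the line) and GAS cores (blue, below the line) in the promoter windows of 8 members, in bases from the RefSeq start, with overlapping matches merged. The window drawn for each of the 8 members holds an ISRE core upstream of the start, and the GAS and ISRE cores of Tgtp1, Igtp and Irgm2 lie side by side.

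The other family members were compared between P7 and P3 over the whole table. Of 18 further GBP and IRG genes, 16 passed the filter on low values. At P7, 11 fell, 0 rose and 5 were not called, against 12.8% of all genes called lower (limma, Benjamini-Hochberg adjusted p under 0.05, two-sided). Their median log2 difference was -1.64, against -0.02 over all genes. Tgtp2 stood at 152 ± 37.0 at P7, against 3482 ± 1053 at P3 (log2 -4.48 ± 0.31 SE, limma adjusted p = 1.91e-06, n = 3 per age). Since its reads cannot be told with certainty from those of the member Tgtp1, this p is not independent of the choice of members. Gvin1, a very large interferon-inducible GTPase, stood at 78.5 ± 8.10, against 1231 ± 175 (log2 -3.95 ± 0.24 SE, limma adjusted p = 1.26e-06). Gm12250 (Irgb10), which acts on bacterial membranes, stood at 33.2 ± 8.13 at P7, against 650 ± 234 at P3. Ifi47 (Irgd) stood at 140 ± 11.8, against 1601 ± 615.

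Not all of the family fell. Gbp11 stood at 583 ± 117 at P7, against 500 ± 113 at P3, so its log2 difference was 0.22 ± 0.23 SE (limma adjusted p = 0.497), although its chromosome 5 neighbours Gbp4, Gbp8, Gbp9 and Gbp10 all fell. Irgq, an IRG relative that interferon is not known to induce, was not called either (log2 -0.24 ± 0.09 SE, limma adjusted p = 0.0649). Gbp2b, the mouse counterpart of human GBP1, stood between 0.939 and 4.84 at P7, against 9.27 to 37.7 at P3, and did not pass the filter. Irgc1, a gene of the testis, did not exceed 3.12 in any library. Of 9 other GTPases, Mx1 and Mx2, antiviral members of the dynamin family, fell, Atl1, an atlastin that shapes the endoplasmic reticulum, rose, and 6 were not called. The shares of all genes were 12.8% called lower and 15.4% called higher. Only 1 of the Mx pair was called without P3 replicate 3 or without P7 replicate 6.

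No receptor of the interferons was called. The 9 tested genes of the ligand and receptor list were receptor chains and the interleukins Il12a, Il15 and Il18, with no interferon among them. At P7 against P3, 0 of them rose and 0 fell by limma, against 15.4% of all genes called higher and 12.8% called lower. The counts were also 0 at an unadjusted p under 0.05, by edgeR and by DESeq2. Ifngr1, the ligand-binding chain of the interferon gamma receptor, stood at 2104 ± 128 at P7, against 1957 ± 211 at P3 (log2 0.11 ± 0.09 SE). Of the 15 genes listed as ligands and receptors, 11 had values in the table. The interferon genes Ifng, Ifnb1, Ifnl2 and Ifnl3 were not among those 11, so their levels are not given here. Of 15 genes of the JAK-STAT pathway and interferon regulatory factors, 9 fell and 0 rose (1 higher at an unadjusted p under 0.05, and 0 by edgeR and DESeq2). Irf1 stood at 821 ± 56.1, against 2437 ± 631 (log2 -1.54 ± 0.18 SE, limma adjusted p = 7.68e-05). The kinases Jak1 (log2 -0.01 ± 0.07 SE) and Jak2 (log2 0.22 ± 0.10 SE) were not called.

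Most target genes outside the GTPase families were also lower at P7. Of the 18 tested targets that interferon gamma induces most, 17 fell and 0 rose, and the one not called was Nos2. Over all genes, 12.8% were called lower and 15.4% higher. Cxcl9, among those that fell, passed the filter only through its P3 libraries. Of 19 type I targets, 17 fell and 0 rose. The 2 not called were Cmpk2 and Ifih1. For both lists edgeR and DESeq2 gave the same counts, and 0 genes were higher at an unadjusted p under 0.05. The lists overlap in biology, since both kinds of interferon induce many of these genes. Both lists were drawn up with earlier results of these data known, so their counts are not independent of the members.

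The machinery that carries GTPases to vacuoles moved otherwise. Loading of IRGs and GBPs onto vacuoles uses the conjugation of ATG8 proteins, and of 18 tested genes of that machinery and its partners 10 rose and 2 fell, against 15.4% of all genes called higher and 12.8% called lower. Gabarapl2, an ATG8 protein, rose (log2 0.77 ± 0.16 SE, limma adjusted p = 0.00339), as did the cargo receptors Tax1bp1 (log2 0.46 ± 0.06 SE) and Sqstm1 (log2 0.33 ± 0.06 SE). Trim21 and Lgals3, a galectin that marks damaged vacuoles, were the 2 that fell. Among 10 inflammasome genes, Gsdmd, the pore former of pyroptosis (log2 -0.66 ± 0.10 SE), and Casp4, the sensor of cytosolic lipopolysaccharide (log2 -0.99 ± 0.24 SE), fell, Il1b rose (log2 1.54 ± 0.44 SE) and 7 were not called. The call of Il1b was lost without P3 replicate 3, P7 replicate 4 or P7 replicate 5. The genes that fell numbered 4 without P3 replicate 1 or P21 replicate 1.

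Markers of cells that make or answer interferon moved with age in the same comparison, in which 12.8% of all genes were called lower and 15.4% higher. The summed level of 14 macrophage markers lay between 19087 and 21543 at P7, against 27471 to 36751 at P3, and 9 of the 14 fell. The markers that fell numbered 4 without P3 replicate 2 or P7 replicate 5, and 5 without P3 replicate 3 or P7 replicate 4. Cd68 differed most among them, with 1397 ± 233 at P7, against 3484 ± 609 at P3. Of 14 markers of T and natural killer cells in the table, 7 passed the filter and 3 fell (Klrk1, Gzma and Nkg7). Klrk1 and Gzma passed it only through their P3 libraries, so their calls are not independent of the filter. Gzma, a granzyme of cytotoxic cells, stood between 0 and 5.42 at P7, against 17.7 to 56.5 at P3. With the filter at 50, 0 of these markers were called, and with P3 replicate 2, P3 replicate 3 or P7 replicate 5 left out, 1. The T cell genes Cd3e and Cd3g lay between 0.843 and 2.83 and between 0 and 1.69 in the P3 libraries, at or under the floor of 3 reads. Cd3d, also of the CD3 complex, stood at 0.843, 8.54 and 5.65 in the P3 libraries, so that 2 of 3 lay above the floor. Summed endothelial markers lay between 17075 and 19105 at P7, against 22048 to 22934 at P3, and 3 of 12 fell. The endothelial markers that fell numbered 5 without P21 replicate 2, 8 with only both ages in the fit and 8 without 4 later libraries that held little of the Y-linked transcript Eif2s3y. Of 8 erythroid and of 12 neutrophil and B cell markers, 0 were called in either direction by limma, edgeR and DESeq2, and 1, a neutrophil and B cell marker, was lower at an unadjusted p under 0.05. With only both ages in the fit, 3 neutrophil and B cell markers were called lower. The nerve's own markers all passed the filter: 9 of 12 Schwann cell markers and 5 of 12 markers of spiral ganglion neurons rose, and 1 of each fell. The lower call was lost in both lists without P3 replicate 3 or P7 replicate 6, and in the Schwann cell list also without P7 replicate 4, while 2 neuron markers fell without P3 replicate 2. Of 10 fibroblast markers 3 rose and 3 fell. Those that fell numbered 5 with quantile normalization or with only both ages in the fit. Thy1 is in both the fibroblast and the neuron list, so these lists are not separate. The part of these cells in the member levels was not tested.

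Across the 15 libraries each member's log2 level followed the mean of the other 9, with Pearson's r between 0.857 (Gbp5) and 0.989 (Irgm1), over a span that includes the step between P3 and the later ages. Outside the members, the 8 genes most like their mean profile were Tgtp2 (r = 0.981), Ifi47 (0.980), Parp12 (0.979), Il18bp (0.971), Samhd1 (0.970), Psmb9 (0.968), Zbp1 (0.967) and Tap1 (0.965). Tgtp2 shares most of its sequence with the member Tgtp1, so its r is not independent of the members. Il18bp, a secreted inhibitor of interleukin 18, stood at 132 ± 5.95 at P7, against 504 ± 222 at P3. Samhd1, a phosphohydrolase that restricts viral replication, stood at 1165 ± 129, against 3124 ± 672. Over the 12 libraries after P3 the members no longer ran together: r with the mean of the others ranged from -0.06 (Iigp1) to 0.893 (Gbp2), and for 6 of 10 it was below 0.34. The genes most like their mean over these 12 libraries were Adra1a (r = 0.889), Ccdc151 (0.889), Stk31 (0.887), Ears2 (0.875), Usp27x (0.868), Nbl1 (0.853), Manea (0.844) and Kif6 (0.839), none of them among the 8 named over all libraries. Some of these r rest on low counts: the P14 mean was 3.83 for Stk31, 7.33 for Adra1a, 9.5 for Kif6 and 22.6 for Ccdc151. It was 108 for Usp27x, 465 for Ears2, 2289 for Manea and 5131 for Nbl1. The libraries of 1 age share their stage, so these correlations are descriptions.

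The differences between ages after P3 were not used to choose the members, although the P7 libraries had been low in that choice. The tests of these differences are not independent of that choice. The P3 libraries were in the same fit, and their spread entered the standard errors, so calls and missing calls both depend on that spread. At P14 against P7, Iigp1 and Gbp6 fell, and the other 8 members were not called. Iigp1 stood at 247, 307 and 260 at P14, against 592, 558 and 464 at P7 (log2 -0.98 ± 0.19 SE, limma adjusted p = 0.000798). Gbp6 stood at 416, 331 and 411 at P14, against 871, 874 and 672 at P7 (log2 -1.06 ± 0.24 SE, limma adjusted p = 0.00284). The libraries of the 2 ages did not overlap for either gene, and the share of all genes without overlap was not counted. A count of 2 lower and 0 higher of 10 stands beside 23.8% of all genes called lower, 24.3% called higher and 48.1% called in either direction, so the share that fell is near the background. At an unadjusted p under 0.05 and by edgeR and DESeq2 the members higher were also 0.

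The GBPs of chromosome 5 fell together at that step. All 6 tested (Gbp4, Gbp6, Gbp8, Gbp9, Gbp10 and Gbp11, between positions 105014153 and 105346476 of build mm10) fell at P14 against P7, by log2 differences between -1.53 and -0.88. The 4 GBPs of chromosome 3 (Gbp2, Gbp3, Gbp5 and Gbp7, between 142496934 and 142638008) had log2 differences between -0.31 and 0.34, and 0 were called. Over all genes, 23.8% were called lower and 24.3% higher at this step. The difference between the rows of genes was not tested. Gbp4 stood at 576 ± 67.2 at P14, against 1210 ± 19.5 at P7 (limma adjusted p = 7.19e-05), and Gbp11 at 201 ± 37.6, against 583 ± 117 (limma adjusted p = 0.000108). Since reads of Gbp6 may be shared with other models, the 6 values need not be independent.

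**Figure D4:**
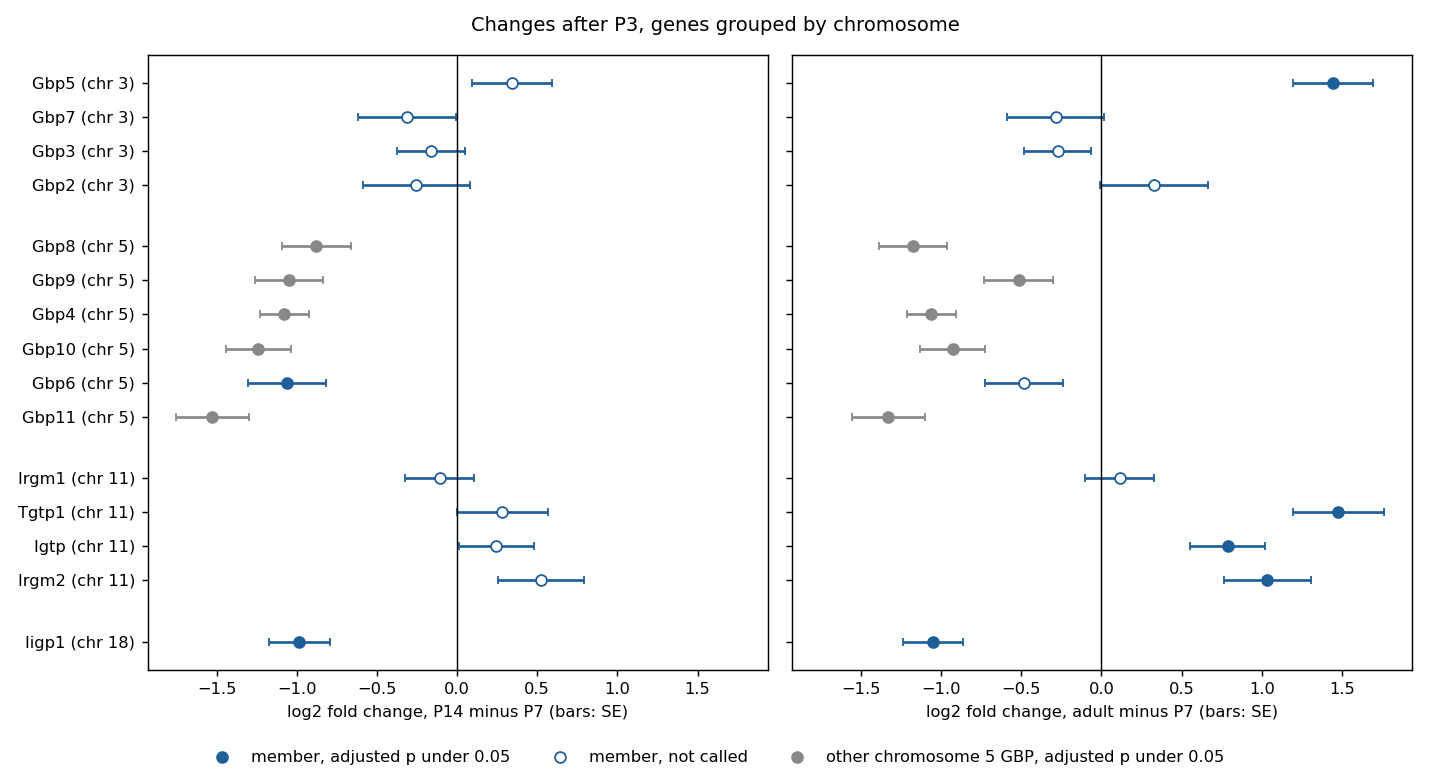
Log2 fold change with its standard error for P14 minus P7 (left) and adult minus P7 (right), genes in chromosomal order, members in blue and other chromosome 5 GBPs in grey, filled where the limma adjusted p was under 0.05. On the left the 6 chromosome 5 GBPs and Iigp1 lie at or below -0.88, and on the right Gbp5, Tgtp1, Irgm2 and Igtp lie above 0.78.

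Irgm2 was not called at this step, with 380, 367 and 290 at P14, against 222, 239 and 255 at P7 (log2 0.52 ± 0.27 SE, limma adjusted p = 0.128). The P14 libraries all lay above the P7 ones, and the share of all genes with such a gap was not counted. In the fit over 5 ages the standard error of a member includes the spread between the P3 libraries. Without P3 replicate 1 the limma adjusted p of Irgm2 was 0.0167, and over all alternatives run it lay between 0.015 and 0.269.

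At P21 against P14 limma called 0 of the 10 members in either direction, against 3.29% of all genes called higher, 6% called lower and 9.29% called in either direction. The count was also 0 at an unadjusted p under 0.05, by edgeR and by DESeq2. The lowest limma adjusted p was that of Gbp7, 0.261. Gbp7 stood at 198, 83.3 and 150 at P21, against 162, 237 and 212 at P14, and the groups overlapped. Gbp3 stood at 365, 346 and 265 at P21, against 401, 411 and 429 at P14, with no overlap but an adjusted p of 0.308 by limma. How many of all genes lacked overlap at this step was not counted.

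In adults against P21, 2 members rose and 0 fell, against 25.4% of all genes called higher, 24.1% called lower and 49.4% in either direction. The members lower were also 0 at an unadjusted p under 0.05, by edgeR and by DESeq2. Gbp5 stood at 260, 222 and 221 in adults, against 157, 103 and 98.8 at P21 (log2 0.99 ± 0.25 SE, limma adjusted p = 0.00587). Tgtp1 stood at 307, 147 and 203 in adults, against 129, 145 and 81.2 at P21 (log2 0.86 ± 0.29 SE, limma adjusted p = 0.0246). The call of Tgtp1 was lost with any 1 of P21 replicate 3 (limma adjusted p = 0.0977), adult replicate 1 (0.114) or adult replicate 3 (0.0502) left out. Over all alternatives run that p ranged from 0.0059 to 0.114. The adult libraries of both genes all lay above the P21 libraries. How many of all genes lacked overlap between these ages was not counted. Gbp2 stood at 643, 570 and 687 in adults, against 494, 466 and 380 at P21, with no overlap (log2 0.51 ± 0.34 SE, limma adjusted p = 0.226), and without P3 replicate 1 its adjusted p was 0.00957, within a range of 0.00957 to 0.433 over the alternatives.

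Over the whole later span, adults against P7, 4 members rose in adults, 1 fell and 5 were not called, against 33.5% of all genes called higher, 34.1% called lower and 67.6% in either direction. This comparison shares its P7 libraries with that of P14 against P7. Tgtp1 was 2.88-fold higher in adults (log2 1.48 ± 0.29 SE, limma adjusted p = 0.000428) and Gbp5 2.72-fold (log2 1.44 ± 0.25 SE, limma adjusted p = 0.000167). Irgm2 stood at 474, 510 and 486 in adults, against 222, 239 and 255 at P7 (log2 1.03 ± 0.27 SE, limma adjusted p = 0.00386). Igtp stood at 478, 458 and 526 in adults, against 259, 292 and 295 at P7 (log2 0.79 ± 0.23 SE, limma adjusted p = 0.00874). Iigp1 was the one that fell, with 249, 254 and 271 in adults, against 592, 558 and 464 at P7 (log2 -1.05 ± 0.19 SE, limma adjusted p = 0.00024). The libraries of the 2 ages did not overlap for any of these 5, and the share of all genes without overlap was not counted. Without P3 replicate 1, Gbp6 was also called lower (limma adjusted p = 0.0246) and Gbp2 higher (limma adjusted p = 0.0489). Over the alternatives run, these p ranged from 0.0133 to 0.23 for Gbp6 and from 0.0242 to 0.608 for Gbp2.

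The order of the ages differed among members once P3 was passed. For Gbp5, Igtp, Irgm2 and Tgtp1 the means ran upward from P7 over P14 and P21 to adults, although neighbouring ages overlapped in 1 (Igtp) or 2 of the steps. For Gbp2, Gbp6 and Irgm1 the lowest mean was at P14, for Gbp3 and Gbp7 at P21 and for Iigp1 in adults. Irgm1 stayed within 647 to 997 in all 12 later libraries, and in the order of its later means (adults, P7, P21, P14) each age overlapped the next, although its P7 libraries all lay above its P14 libraries. Even in adults the means remained below P3 for all 10, by log2 differences between -4.26 and -0.87.

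Interferon targets were also compared after P3. In adults against P7, 15 of 19 type I targets rose and 0 fell. The count lower was also 0 at an unadjusted p under 0.05, by edgeR and by DESeq2. Over all genes, 33.5% were called higher and 34.1% lower. Of 18 gamma targets, 5 rose and 3 fell, so neither count exceeded those shares. The difference between the lists was not tested. Ifit1, an RNA-binding antiviral protein, rose most among the type I targets (log2 3.43), and Irf1 was not called (log2 -0.10). Macrophage markers ran opposite to the type I targets: 13 of 14 fell in adults against P7. Their summed level lay between 6500 and 8773 in adults, against 19087 to 21543 at P7.

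Transcripts of Eif2s3y, a gene on the Y chromosome, were under 100 in 1 library of P14, 2 of P21 and 1 of the adults but in none of P3 or P7, so sex and age are partly mixed in comparisons with the later ages. Leaving out these 4 leaves 1 library at P21, which the fit assumes to vary like the other ages. With them left out the members called were the same in number, 2 lower at P14 against P7, 2 higher in adults against P21, and 4 higher and 1 lower in adults against P7.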

How the data were processed

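The signal deposited by the authors holds, for each gene and library, reads scaled by a library's size factor. Per the submitters' processing notes, Partek, TopHat2 and DESeq2 were used on build mm10, and annotation, counting settings and strand use were not given in the sources used here. Dividing by the smallest step of each library returned whole reads, within 0.1, for 99.94% of the values above 0. The floor of 3 reads reflects counting error alone, since the labels name no molecular identifiers and PCR copies are not separate molecules. Ends of genes are printed 1 below the table's stop.

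Limma (3.58.1, R 4.3.3, trend and robust) was run on log2(value + 1) for genes that reached 10 in 3 or more libraries, with all 15 libraries in 1 fit with 10 residual degrees of freedom. Fold changes on this scale understate changes of low genes. Alternatives were other scalings, filters and pseudocounts, edgeR (4.0.16) and DESeq2 (1.42.0) on recovered reads, both ages only, each library left out, a replicate block, and no libraries low in Eif2s3y. The code was tested on simulated data. Members and lists were chosen with earlier results of these data known. All 10 members were named, with up to 4 genes per other list by smallest adjusted p in P7 against P3, a fixed set of family genes and regulators, and the 8 genes most like the members. A few others (Nos2, Cmpk2, Ifih1, Lgals3, Jak1, Jak2, Cxcl9, Cd4) were named after their values were seen. Whether samples of an age came from separate litters is not given, so p-values measure the spread between these mice. On recovered reads edgeR called between 1582 genes (P21 against P14) and 11298 genes (adult against P7). Per the labels' protocols, degraded or contaminated RNA was set aside before TruSeq libraries were made.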

Additional observations from a re-analysis of the deposited data

How the results depend on the processing

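Of 1270 values of single members under the alternatives, 1240 kept their direction and call (for P7 against P3, with no test, they moved by less than the replicate SD), 5 lost the call, 10 gained it and 15 that were not called changed sign, 13 of them at P21 against P14 and 2 in adults against P21 (Iigp1). No called value changed sign. Members lower at P14 against P7 numbered 2 under every alternative, and members higher 0, or 1 with only both ages in the fit (leaving out 1 library: 0 to 1). At P21 against P14 they numbered 0 throughout, while the genes called in all numbered 1553, against 2519 by DESeq2, 1582 by edgeR, 137 with only both ages in the fit, 754 without the libraries low in Eif2s3y and 645 with the replicate block (leaving out 1 library: 631 to 1969). In adults against P21 the members higher numbered 2, or 1 with the replicate block (1 to 3 with 1 library left out), and the genes called 8266, against 5211 with only both ages and 3987 without the libraries low in Eif2s3y. Such values rest on 1 library at P21, assumed to vary like the other ages. In adults against P7 the members lower numbered 1, or 3 with only both ages (1 to 2 with 1 library left out). Between P7 and P3 the log2 median of the members ranged from -3.16 to -2.48 with 1 library left out, and the genes called from 3080 (without P7 replicate 5) and 3124 (without P3 replicate 3) to 6349 (without P21 replicate 2).

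No pairing of samples by number was seen between P21 and P14 or between adults and P21. There, same-numbered libraries had correlations of their deviations between -0.133 and 0.152. P3 was not examined in this way, and weak correlations cannot exclude a shared litter or preparation. P7 libraries carry other numbers, so the block was fitted without them. With the replicate block the limma adjusted p of Tgtp1 in adults against P21 was 0.0506. Precision at P3 is limited by the spread between 3 libraries, replicate 1 above all.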
